A study of Mus musculus with 8 samples.

Results

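The Krüppel-like factors (KLFs) measured here were 10 genes, Klf2, Klf3, Klf4, Klf5, Klf6, Klf7, Klf9, Klf10, Klf13 and Klf15, represented by 13 probes on a mouse expression array. The genes were chosen by family membership, and every probe annotated to one of them was taken, 13 of the 25697 probes on the array. RNA came from mouse bone marrow mesenchymal stem cells (MSCs) at passage 6 that had been transfected with a plasmid, either an empty vector (EV, 4 arrays) or Myc-tagged L63RhoA (4 arrays), a constitutively active form of the small GTPase RhoA. Both groups went through lipofection, and no array held untransfected cells. The sample records give the harvest as 48 h after transfection, whereas the description of the experiment gives 3 days. The experiment was described as 4 independent repeats, but replicate numbers were not tied to them, so p-values measure the spread between these arrays. The comparison of L63RhoA with EV asks which genes respond to active RhoA in MSCs, and here how the KLF genes stood in it.

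KLFs are transcription factors that bind GC-rich and CACCC sequences through a row of zinc fingers at the end of the protein, and they differ in the cofactors recruited by the rest of it. Some members work mainly as activators, others recruit the Sin3A or CtBP repressor complexes, and a gene that one KLF switches on can be switched off by another. In vessels and in cells of the MSC lineage the family is known for its part in keeping smooth muscle genes low or high, in the quiescent state of endothelium and in the steps of fat cell formation.

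Signal intensities were corrected for background, quantile normalized and taken as log2, and are called levels below. Levels were compared between arrays for 1 probe at a time and not between probes, because probes differ in how brightly they hybridize. Of the 25697 probes, 12349 had a detection p-value under 0.05 on at least 4 arrays, and 8360 genes, each followed by its brightest such probe, entered the limma test, with p-values adjusted by Benjamini-Hochberg over all of them. Mean signals per array ran from 274 to 377 for EV and from 320.1 to 350 for L63RhoA, with EV replicates 2 and 4 the dimmest, and between 11925 and 12981 probes detected. The single Rhoa probe had no detection on the 8 arrays, so these arrays gave no check of the transfected gene. Arrays also differed within groups along 1 main component, which held 48.2% of the variance within groups over all genes. Scores on it were -3.53, -19.28, 9.12 and -20.20 in EV replicates 1 to 4 and -8.90, 14.52, 13.03 and 15.23 in L63RhoA replicates 1 to 4, so EV replicate 3 and L63RhoA replicate 1 each stood on the side of the other group's majority. Of the MSC markers, 8 were detected and tested, with no call, Thy1 and Lepr were detected on no array, and of 5 haematopoietic markers with a probe none was detected on any array. Of 6 endothelial markers, Kdr, Tek and Vwf were detected on at least 4 arrays, Cdh5 and Tie1 on none and Pecam1 on at most 2. The summed signal of the 3 ran from 293 to 341 on EV arrays and from 329 to 401 on L63RhoA arrays. This sum was not normalized, so the differences in mean signal between arrays enter it. The markers whose groups did not overlap were Tek and Nes, as for 9.93% of all genes. Tek was at a log2 difference of 0.47 (adjusted p = 0.087 from limma). Its probe was detected on 4 arrays, the fewest accepted, with signals of 87.6 to 115, close to background. Such a probe can pass the filter through the group where it is higher, so its lack of overlap carries little weight. Among MSC markers, Nes was at -0.26 and Cd44 at -0.33 (adjusted p = 0.15 and 0.17 from limma). Pdgfra was at 0.14, Nt5e at 0.02, and Eng, Vcam1, Itgb1 and Pdgfrb between -0.22 and -0.07. The part of these differences in the KLF values was not tested.

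All 10 KLF genes, and all 13 of their probes, passed the detection filter. No KLF gene was called higher or lower in L63RhoA at an adjusted p under 0.05 (limma), where 0.383% of all genes were called higher and 0.323% lower. Klf2 and Klf5, 2 of the 10 genes, had an unadjusted p under 0.05, as did 24.4% of all genes. At the false discovery rate of 0.20 named in the methods of the study, Klf5 was higher and Klf2 lower, 1 of 10 genes in each direction, where 13.1% of all genes were called higher and 10.4% lower. The members' shares were thus near those of all genes. None of the 10 genes changed by more than 2-fold. Levels of the 2 groups overlapped for all 10 genes, whereas 9.93% of all genes had groups that did not overlap. The log2 difference, L63RhoA minus EV, was positive for 4 members and negative for 6, with a median of -0.05 (0.01 over all genes) and a median size of 0.14 (0.16 over all genes). The median standard error was 0.12, the same as over all genes. In cell populations such as these, fewer cells expressing a gene and less of its RNA per cell cannot be told apart.

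**Figure D1:**
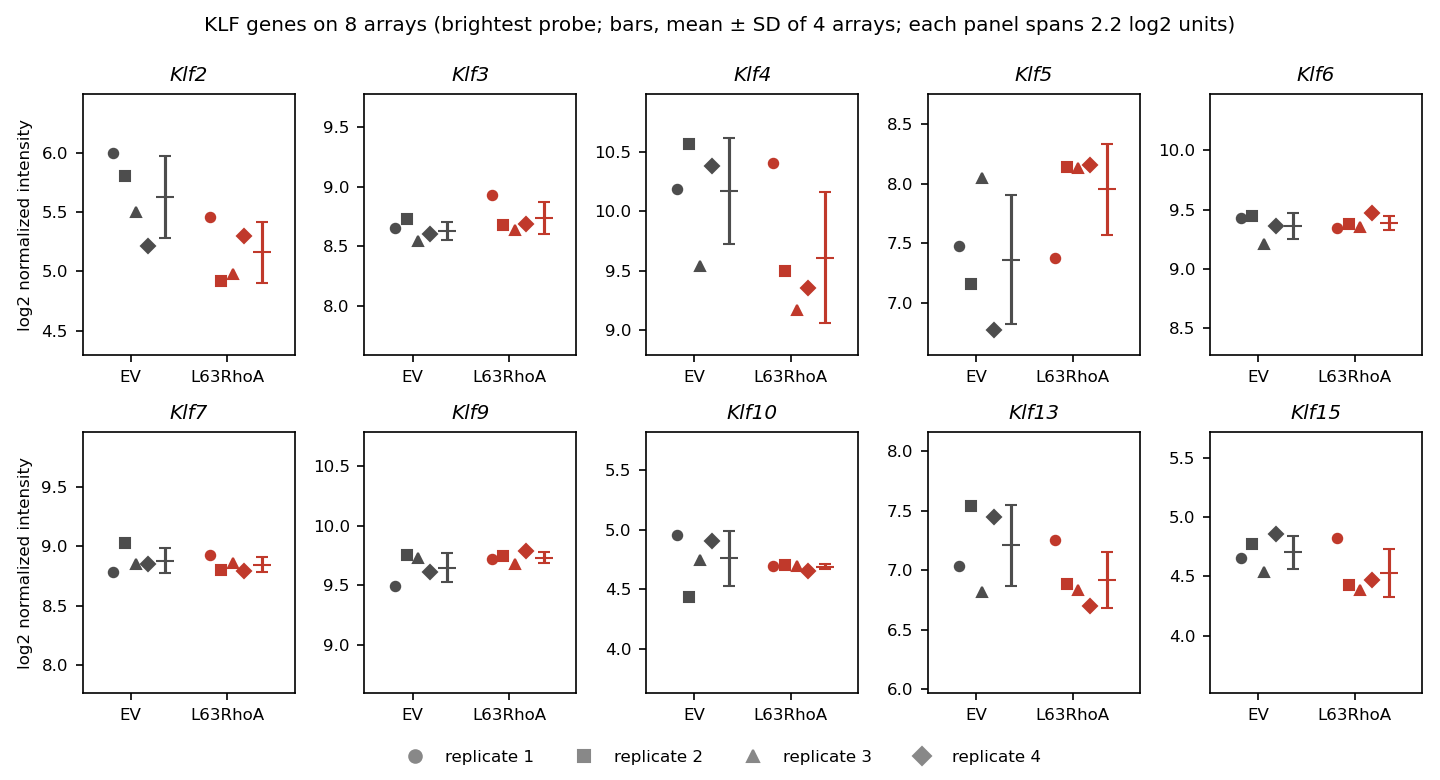
Levels of the 10 KLF genes on each array (log2 normalized intensity, brightest probe; symbols, replicates; bars, mean ± SD of 4 arrays). Klf4 and Klf5 spread most within groups, EV replicate 3 and L63RhoA replicate 1 lie with the other group in both, and Klf3, Klf6, Klf7 and Klf9 stay nearly level.

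Klf2, Klf4, Klf5, Klf6 and Klf7 form the branch known mainly as activators, although Klf4 also represses. Of these, the first 3 had the largest differences of the family, and none passed the test. Klf2 is induced by laminar flow in endothelium, where it maintains an anti-inflammatory, anticoagulant state, and it holds back fat cell formation by repressing Pparg. Its level was 5.99, 5.81, 5.50 and 5.21 in EV replicates 1 to 4, and 5.46, 4.92, 4.98 and 5.30 in L63RhoA replicates 1 to 4. L63RhoA replicates 2 and 3 lay below all EV arrays, whereas L63RhoA replicates 1 and 4 lay within the EV range. The group means were 5.63 ± 0.34 (EV) and 5.16 ± 0.26 (L63RhoA; SD, n = 4 each), a log2 difference of -0.47 (standard error 0.18, 95% confidence interval -0.86 to -0.07). Klf2 had the smallest p of the 10 genes, with an unadjusted p of 0.024 and an adjusted p of 0.16 from limma, and 15.4% of all genes had a p as small. An exact two-sided permutation test over the 8 arrays gave p = 0.11, where the smallest p possible is 0.029. The deposited Klf2 signals were 110 to 142, close to background, and without further background correction the log2 difference was -0.17 and with an offset of 50 it was -0.26.

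Klf4, one of the factors used to reprogram cells to pluripotency, represses smooth muscle genes such as Acta2 when smooth muscle cells leave the contractile state. It had 3 probes, and the brightest (ILMN_2999439) had levels of 10.19, 10.56, 9.54 and 10.39 in EV and 10.41, 9.50, 9.17 and 9.35 in L63RhoA, replicates 1 to 4 in each. EV replicate 3 lay with the 3 low L63RhoA arrays, and L63RhoA replicate 1 lay among the high EV arrays. The means were 10.17 ± 0.45 and 9.61 ± 0.55 (SD, n = 4 each), a log2 difference of -0.56 (standard error 0.28, 95% confidence interval -1.17 to 0.05, adjusted p = 0.23 from limma; exact two-sided permutation p = 0.17). The interval runs from a level 2.25-fold lower in L63RhoA to one slightly higher, so neither a fall of this size nor no change could be shown with these arrays. The probe ILMN_1241903 gave a similar log2 difference, -0.58, from levels of 6.95, 7.70, 6.55 and 7.82 in EV and 6.80, 6.49, 6.83 and 6.58 in L63RhoA (adjusted p over all probes = 0.19 from limma). The probe ILMN_1221264 gave -0.20, from 5.73, 6.54, 5.29 and 6.65 in EV and 6.25, 5.72, 5.70 and 5.73 in L63RhoA (adjusted p over all probes = 0.67 from limma). On all 3 probes EV replicates 2 and 4 were the highest EV arrays and EV replicate 3 the lowest. The 3 probes thus shared the sign of the difference, the pair of highest EV arrays and the lowest EV array. The order within that pair and the size of the difference varied.

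Klf5 is often set against Klf4 in smooth muscle, where it promotes growth and remodelling, and it is an early activator of Pparg in fat cell formation. Its level was 7.47, 7.15, 8.05 and 6.77 in EV and 7.38, 8.15, 8.13 and 8.15 in L63RhoA. The pattern was the mirror image of Klf4, with EV replicate 3 close to the 3 high L63RhoA arrays and L63RhoA replicate 1 inside the EV range. The means were 7.36 ± 0.54 and 7.95 ± 0.38 (SD, n = 4 each), 1.51-fold higher in L63RhoA (log2 difference 0.59, standard error 0.26, 95% confidence interval 0.02 to 1.16). The unadjusted p was 0.044 and the adjusted p 0.195 over genes and 0.204 over probes from limma, and an exact two-sided permutation test gave p = 0.11. In deposited, linear signal the Klf5 probe read 260.2, 181, 390 and 170 in EV and 260.4, 384, 380 and 349 in L63RhoA, so replicate 1 had almost the same signal in both groups.

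Klf6, a widely expressed factor that responds to tissue injury, had levels of 9.43, 9.45, 9.21 and 9.36 in EV and 9.35, 9.37, 9.36 and 9.47 in L63RhoA on its brightest probe, ILMN_2731949. The groups lay over each other, and the log2 difference was 0.03 (standard error 0.09, 95% confidence interval -0.17 to 0.22, adjusted p = 0.87 from limma). Its dimmer probe, ILMN_1232041, had levels of 5.27, 5.14, 5.19 and 5.45 in EV and 5.41, 5.75, 5.29 and 5.70 in L63RhoA, where replicates 2 and 4 lay above all EV arrays. Its log2 difference was 0.28, with an unadjusted p of 0.049 and an adjusted p over all probes of 0.21 from limma. The probes of Klf6 therefore gave differences of unlike size, and whether they read the same transcripts was not tested. Klf7, known from neurons and as a brake on fat cell formation, ranged from 8.78 to 9.02 in EV and from 8.79 to 8.93 in L63RhoA (log2 difference -0.03, standard error 0.09, 95% confidence interval -0.23 to 0.16).

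Over probes, 0 of 13 were called at an adjusted p under 0.05 (limma), against 0.64% of all probes, and 4 of 13 had an unadjusted p under 0.05, 1 each of Klf2, Klf4, Klf5 and Klf6, against 23.1% of all probes.

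**Figure D2:**
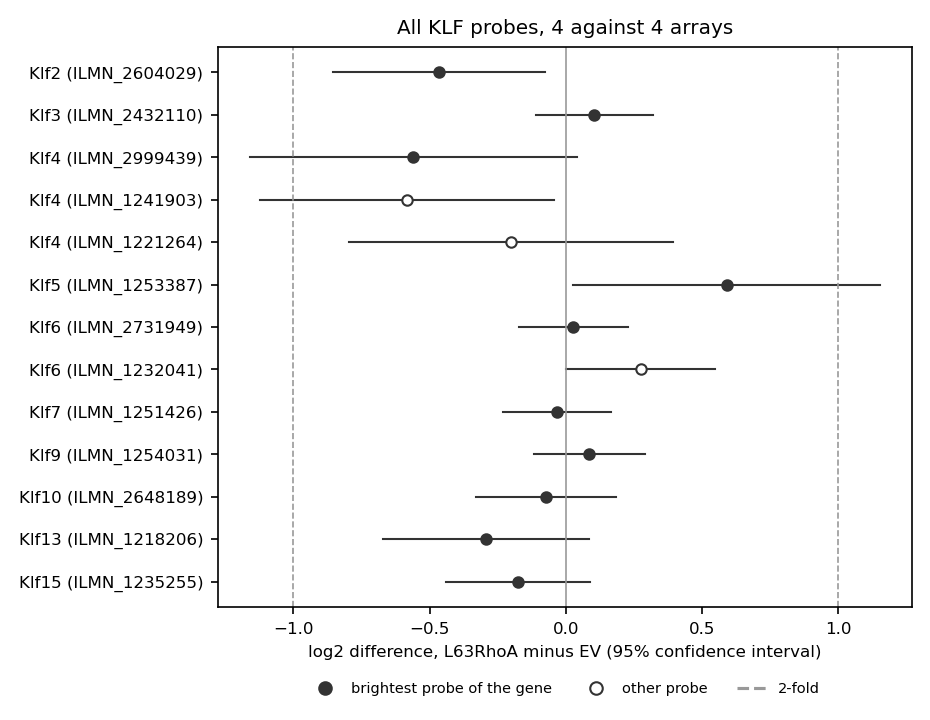
Log2 difference (L63RhoA minus EV) of the 13 KLF probes with 95% confidence intervals from limma over all probes (filled, the probe that stands for the gene; open, other probes; dashed lines, 2-fold). The intervals of Klf4 and Klf5 are the widest, and those of Klf3, the brightest Klf6 probe, Klf7 and Klf9 are narrow and include 0.

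Klf3, which recruits CtBP and represses transcription, restrains fat cell formation among other roles. Its level was 8.65, 8.73, 8.54 and 8.60 in EV and 8.94, 8.68, 8.63 and 8.69 in L63RhoA. Only L63RhoA replicate 1 lay above the EV range, and the log2 difference was 0.10 (standard error 0.09, 95% confidence interval -0.11 to 0.31, adjusted p = 0.51 from limma).

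Klf9, Klf10 and Klf13 belong to the branch that binds Sin3A. Klf9 is induced by glucocorticoid and thyroid hormone, and its level ranged from 9.49 to 9.75 in EV and from 9.68 to 9.79 in L63RhoA (log2 difference 0.09, standard error 0.09, 95% confidence interval -0.11 to 0.28). The largest change in either direction inside the 95% confidence interval was 1.24-fold for Klf3, 1.17-fold for Klf6 (brightest probe) and for Klf7, and 1.22-fold for Klf9, so these 4 genes had the narrowest limits of the family. Klf10, an immediate target of TGFβ signalling also called TIEG1, had levels of 4.95, 4.43, 4.74 and 4.90 in EV and 4.70, 4.70, 4.69 and 4.65 in L63RhoA. Its probe was detected on 3 arrays of each group only, with deposited signals of 89.6 to 107, close to background, and the log2 difference was -0.07 (standard error 0.12, adjusted p = 0.72 from limma). Klf13, known as an activator of Ccl5 in T cells and for a role in the heart, had levels of 7.04, 7.54, 6.82 and 7.45 in EV and 7.25, 6.88, 6.84 and 6.70 in L63RhoA. EV replicates 2 and 4 were highest and EV replicate 3 lay among the low L63RhoA arrays, as for Klf4. The log2 difference was -0.29 (standard error 0.17, 95% confidence interval -0.68 to 0.09, adjusted p = 0.31 from limma; exact two-sided permutation p = 0.23).

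Klf15 acts in metabolism, as a glucocorticoid-induced factor that activates the glucose transporter gene Slc2a4 in fat and muscle. It was dim, with levels of 4.65, 4.77, 4.53 and 4.86 in EV and 4.83, 4.43, 4.39 and 4.47 in L63RhoA, and its probe was detected on 3 EV arrays and 1 L63RhoA array. L63RhoA replicates 2, 3 and 4 and EV replicate 3 lacked detection and had the lowest levels. Detection and level come from the same signal, so they are not separate observations. The log2 difference was -0.17 (standard error 0.12, 95% confidence interval -0.44 to 0.09, adjusted p = 0.37 from limma).

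Klf4, Klf5, Klf13 and Klf15 followed the array component described above. Over the 8 arrays, Pearson's r with the component score was -0.95 for Klf4, 0.98 for Klf5, -0.97 for Klf13 and -0.95 for Klf15, and Spearman's rho was -0.86, 1.00, -0.88 and -0.88. These are descriptions over arrays that also define the score, which was computed from all 8360 genes, the KLFs included. The same was true of many genes, since 14.4% of all genes had an r of at least 0.9 in size, and the median size of r was 0.56 for the KLFs and 0.63 for all genes. Klf2, with r = -0.50, followed the score least of the 5 genes with the largest differences. The 4 genes accordingly moved together from array to array, with r = 0.96 between Klf4 and Klf15, 0.92 between Klf4 and Klf13, -0.92 between Klf4 and Klf5 and -0.94 between Klf5 and each of Klf13 and Klf15. After subtraction of the group means, r between Klf4 and Klf5 was -0.89, so their opposite course was present inside the groups and not only between them. The mean score was -8.47 in EV and 8.47 in L63RhoA, so the component and the effect of L63RhoA cannot be told apart for these genes. With the score as a covariate the log2 difference was 0.06 for Klf4, -0.01 for Klf5, 0.08 for Klf13 and 0.04 for Klf15, and -0.40 for Klf2 (adjusted p = 0.58 from limma).

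**Figure D3:**
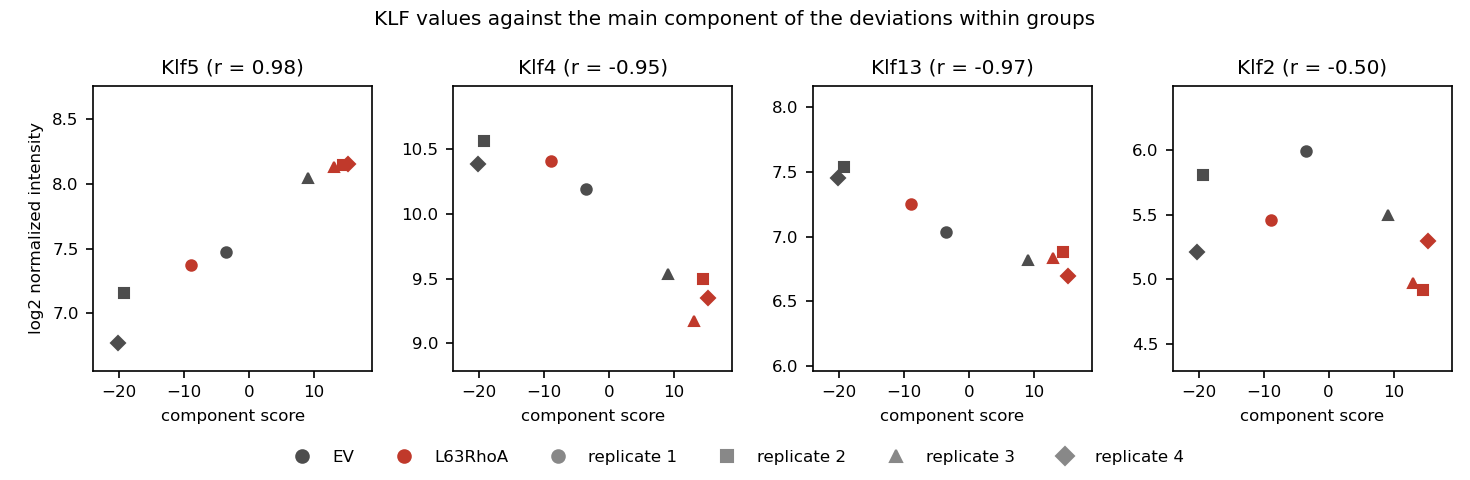
Levels of Klf5, Klf4, Klf13 and Klf2 (log2 normalized intensity) against each array's score on the main component of the deviations within groups (no unit; symbols, replicates; colours, groups). Klf5 rises and Klf4 and Klf13 fall along the score in both groups, whereas Klf2 follows it loosely.

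Single arrays decided whether Klf4 and Klf5 were called. Without EV replicate 3, Klf5 passed the test, with a log2 difference of 0.82 and an adjusted p of 0.042 (limma), but 10.97% of all genes passed as well. Without L63RhoA replicate 1, Klf4 passed, with -0.83 and an adjusted p of 0.036 (limma), where 15.1% of all genes passed. With arrays weighted by their fit to the group means, Klf2 (-0.57, adjusted p = 0.033), Klf4 (-0.83, adjusted p = 0.020) and Klf5 (0.81, adjusted p = 0.021) were called by limma, 3 of 10 genes against 25.1% of all genes. Without the dimmest arrays, EV replicates 2 and 4, the difference was -0.26 for Klf4, 0.19 for Klf5 and -0.01 for Klf13, whereas that of Klf2 was -0.58. Without further background correction Klf13 was at -0.19 and Klf15 at -0.05. Among the members with small differences, Klf3 was at 0.04 without L63RhoA replicate 1 and Klf9 at 0.04 without EV replicate 1. Klf10 was at -0.18 without EV replicate 2, at -0.0074 without EV replicate 1 and at -0.02 without EV replicate 4 or without further background correction.

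**Figure D4:**
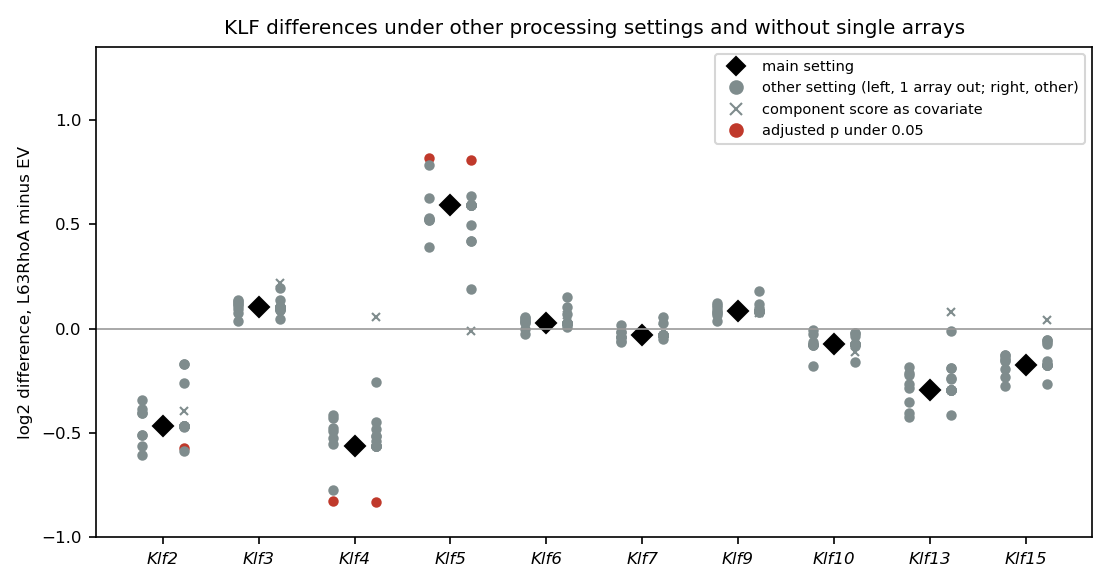
Log2 difference (L63RhoA minus EV) of each KLF gene in the reported fit (diamonds), with 1 array left out (left dots), under the other settings (right dots) and with the component score as a covariate (crosses; red, adjusted p under 0.05). Klf2 stays below 0 throughout, Klf4, Klf5 and Klf13 cross 0 only with the score as a covariate, and the red points are those of Klf4 and Klf5 without 1 array and of Klf2, Klf4 and Klf5 with array weights.

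By the same array-to-array measure, the genes most like Klf2 were Eps15l1 (r = 0.94), Zdhhc6 (r = 0.94) and Ap4s1 (r = 0.93, 8 arrays each), given as a description.

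Promoter sequences are shown for Klf2, the member with the smallest p, and for Klf4, Klf13 and Klf15, which moved together from array to array. They are the 250 bases before the start site, 5′ to 3′ on the gene's strand, from RefSeq on GRCm38.p6, where a window was given for 8 of the 10 members. Capitals mark matches, on either strand, to CACCC (the core that KLFs bind, GGGTG on the other strand), GGGCGG (the core of the GC box, CCGCCC on the other strand), CACGTG (an E-box) and a MEF2 site. The Klf2 window was chr8:72318812-72319061 (plus strand), that of Klf4 chr4:55532476-55532725 (minus strand), that of Klf13 chr7:63938916-63939165 (minus strand) and that of Klf15 chr6:90462326-90462575 (plus strand).
Klf2: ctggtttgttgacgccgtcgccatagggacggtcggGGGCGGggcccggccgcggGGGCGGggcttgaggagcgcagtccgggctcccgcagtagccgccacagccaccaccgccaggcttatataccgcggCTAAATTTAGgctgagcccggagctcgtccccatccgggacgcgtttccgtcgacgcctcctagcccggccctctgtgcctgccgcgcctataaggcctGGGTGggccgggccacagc
Klf4: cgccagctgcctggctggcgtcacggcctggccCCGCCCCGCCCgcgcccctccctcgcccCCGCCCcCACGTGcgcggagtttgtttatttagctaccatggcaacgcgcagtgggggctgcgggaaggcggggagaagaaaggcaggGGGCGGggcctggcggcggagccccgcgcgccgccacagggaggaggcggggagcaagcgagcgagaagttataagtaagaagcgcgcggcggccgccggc
Klf13: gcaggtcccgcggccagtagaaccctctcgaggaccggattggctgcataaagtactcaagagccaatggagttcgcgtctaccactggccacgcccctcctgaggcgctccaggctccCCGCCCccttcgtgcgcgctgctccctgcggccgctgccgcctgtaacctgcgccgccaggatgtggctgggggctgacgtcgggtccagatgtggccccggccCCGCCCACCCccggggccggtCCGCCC
Klf15: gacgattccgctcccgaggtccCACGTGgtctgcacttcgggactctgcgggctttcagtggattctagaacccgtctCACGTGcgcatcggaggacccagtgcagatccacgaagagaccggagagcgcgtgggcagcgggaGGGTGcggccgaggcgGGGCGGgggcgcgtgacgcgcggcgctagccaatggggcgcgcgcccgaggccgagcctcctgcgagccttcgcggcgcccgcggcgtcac
In the Klf2 window a match to the MEF2 site began at position -118 from the start, the kind of site through which the kinase ERK5 and MEF2 factors are known to induce this gene, and a CACCC match at position -19. The Klf4 window held 4 GGGCGG matches, a pair of which shared 1 base, 1 CACGTG and no CACCC. Klf13 held 3 GGGCGG matches and 1 CACCC, which shared 1 base with one of them, and Klf15 held 1 CACCC, 1 GGGCGG and 2 CACGTG. Among the 8 windows, 6 held CACCC, 7 GGGCGG, 3 CACGTG, 1 a MEF2 site and none a CArG box, the serum response factor site of smooth muscle genes. Of 32851 windows of the same length, 52.0% held CACCC, 32.7% GGGCGG, 6.02% CACGTG, 1.69% a MEF2 site and 1.47% a CArG box. KLF windows were rich in G and C (59.2 to 78.4%, against a median of 52.4% over all windows), which bears on how often such letters occur. No element was shared by Klf4, Klf13 and Klf15 other than GGGCGG, which the Klf2, Klf3, Klf6 and Klf7 windows held too. A match of letters shows neither binding nor use of a site.

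The rest of the family and its partners were followed through gene lists. Of 7 other KLF genes, Klf1, Klf8, Klf11, Klf12 and Klf17 were below the detection filter, no probe was annotated to Klf14, and Klf16 had a log2 difference of 0.10 (adjusted p = 0.63 from limma). Of the related SP factors, 3 of 9 were tested and none was called, with Sp1 at -0.42 (adjusted p = 0.28 from limma). Of 15 cofactors and ubiquitin ligases of KLF proteins, 9 were tested and none was called, and Sin3a, the scaffold that Klf9, Klf10 and Klf13 bind, was at 0.38 (adjusted p = 0.19 from limma). Of the ERK5 and MEF2 genes that act upstream of Klf2 and Klf4, 4 of 7 were tested and none was called (Mef2c 0.16, adjusted p = 0.45 from limma). Sp1 was below 5 on L63RhoA replicates 2, 3 and 4 and at 5.66 on L63RhoA replicate 1, which was again the array that stood apart. The Sp1 probe was detected on 5 arrays only, with deposited signals of 99.5 to 133, close to background, which limits this reading.

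Among genes that KLFs are known to control, the smooth muscle list had 1 call and the fat cell list another. Acta2, which encodes αSMA and is repressed by Klf4 in smooth muscle cells, had levels of 9.70, 9.22, 9.69 and 9.06 in EV and 10.52, 10.69, 10.67 and 10.52 in L63RhoA. Every L63RhoA array lay above every EV array, also L63RhoA replicate 1, on which the brightest Klf4 probe lay within the EV range. The Klf4 probe ILMN_1241903 was at 6.80 on that array, among the other L63RhoA arrays (6.49 to 6.83). A link between Klf4 and Acta2 was not tested. The log2 difference of Acta2 was 1.18 (standard error 0.15, adjusted p = 0.0058 from limma), and the study had picked this gene from these arrays. That value is from the brightest of its 4 probes, and the mean of probes gave 0.86 (adjusted p = 0.0012 from limma). The other tested genes of that list did not pass, so 1 of 3 tested genes was called higher and none lower. Smtn, a smooth muscle cytoskeletal gene, was at -0.39 (adjusted p = 0.11) and Cald1, which encodes caldesmon, at -0.69 (adjusted p = 0.15 from limma). With the mean of probes, Smtn was at -0.20 and Cald1 at -0.61. Tagln, Cnn1, Myh11 and Myocd were below the filter.

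In the fat cell list, 5 of 10 genes were tested and 1 was called. Lpl, the lipoprotein lipase gene, had levels of 7.44, 7.16, 7.43 and 7.19 in EV and 7.86, 7.81, 7.77 and 7.83 in L63RhoA, with no overlap. Its log2 difference was 0.52 (standard error 0.09, adjusted p = 0.042 from limma), and the call was lost with median scaling (adjusted p = 0.10) and when a single array was left out (adjusted p 0.073 to 0.14), unless that array was EV replicate 3 or L63RhoA replicate 1. Dlk1, the preadipocyte factor, was at -0.54 (adjusted p = 0.16 from limma), and Pparg, the target that Klf2 represses and Klf5 activates, was at 0.15 (adjusted p = 0.58 from limma).

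The remaining lists had no call at an adjusted p under 0.05. Of 6 genes that Klf2 and Klf4 control in endothelium, 5 were tested, and the one with the smallest p, Nqo1, was at 0.27 (adjusted p = 0.15 from limma). With the mean of its 2 probes Nqo1 was at 0.14. All 6 genes of the glucocorticoid response with a probe were tested. Nr3c1, the glucocorticoid receptor gene, was at -0.60 (adjusted p = 0.11 from limma) and at -0.19 without further background correction. Its groups did not overlap, as for 9.93% of all genes. The Nr3c1 probe was detected on 5 arrays, with deposited signals of 93.0 to 115, close to background. Such a probe can pass the filter mainly through the group where it is higher, so its lack of overlap carries little weight. Dusp1 was at 0.27 and Per1 at -0.58 (adjusted p = 0.19 and 0.199 from limma), and Tsc22d3 and Fkbp5, further targets of the receptor, were at 0.11 and -0.05. Of the early TGFβ response, 4 of 7 genes were tested, and Smad3, the signal transducer of that pathway, was at 0.34 (adjusted p = 0.22 from limma), beside Klf10 at -0.07.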

How the data were processed

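The authors hybridized RNA of 8 samples to Illumina MouseRef-8 v2.0 BeadChips, 4 per group, and extracted signals with GenomeStudio (version not given in the sources used here). Deposited values were intensities on a linear scale, the lowest 75.2, with a detection p-value for each probe and array. The deposited processed values were log2 values. When ordered, they equalled the log2 of quantile normalized intensities (largest difference 5.0e-09, first array), and the variance stabilizing transformation named in the methods was not visible. Genome build was not stated.

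Probes were named through the platform annotation (1 symbol for 23978 of 25697), with symbols updated through the RefSeq gene table. Intensities were corrected with neqc (limma 3.58.1, R 4.3.3; offset 16) and quantile normalized, and of the probes with a detection p under 0.05 on 4 or more arrays the brightest per gene was used. lmFit and eBayes compared the groups, two-sided, in place of the permutation test of the methods, with Benjamini-Hochberg adjustment over 8360 genes, or over 12349 probes where stated. Motifs were counted with Python 3.11.15. The number of arrays limits the precision.

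Every probe of every member was described. Of each pathway list, up to 3 genes with the smallest p were named, those with an unadjusted p under 0.05 or else 1 gene. Pparg, Tsc22d3, Fkbp5, the marker genes and the undetected genes were named outside this rule, after their values were seen. The members and lists were chosen with earlier results of these data known. Alternatives were median scaling, the processed values, leaving out the further background correction, other detection filters, an offset of 50, eBayes with trend and robust, array weights, a replicate block, a t-test, the mean of probes, probes in place of genes, the component score as a covariate, and arrays left out. That t-test was unpaired with equal variances, whereas the study used permutation p-values for its arrays.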

Additional observations from a re-analysis of the deposited data

Results flagged for a closer look

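In 26 groups of 4 levels (13 probes in each condition), 2 had an array farther from the others than Dixon's criterion allows, which chance alone exceeds in about 5% of groups. Both were L63RhoA replicate 1. Klf5 was at 7.38 on this array, against 8.13 to 8.15 on the other L63RhoA arrays. The Klf4 probe ILMN_1221264 was at 6.25, against 5.70 to 5.73 on the others. The same array had the only negative component score among L63RhoA arrays, -8.90. What set it apart was not tested.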

How the results depend on the processing

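No KLF gene was called in the reported fit or in any other setting run, except 3 with array weights and between 0 and 1 when 1 array was left out (0 to 2 KLF probes). Of 226 member values under 23 settings, 211 kept their direction and side of the threshold, 10 changed sign and 5 gained a call. The other detection filters, trend and robust, the replicate block and the t-test leave the members' log2 differences unchanged, so direction could not change there. The processed values and leaving out the further background correction gave the same differences and thus count as 1 check. The 211 is therefore no measure of robustness. Among all genes, 59 were called in the reported fit, 116 on the authors' processed values or without further background correction, and 114 with an offset of 50. The count was 139 with a variance trend and robust estimation, 2098 with array weights and 27 with an unpaired t-test. It was 21 with the component score as a covariate, 7 without EV replicates 2 and 4 together, and 17 to 1260 without 1 array.

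Changes of sign were Klf7 with median scaling (0.057), without EV replicates 2 and 4 together (0.028) and without EV replicate 2 (0.017), Klf6 without EV replicate 3 (-0.024) or L63RhoA replicate 4 (-0.0013), and, with the component score as a covariate, Klf4 (0.055), Klf5 (-0.0091), Klf7 (0.038), Klf13 (0.082), Klf15 (0.039) and Per1 (0.0046). Without 1 array, Klf6 ran from -0.024 to 0.055 and Klf7 from -0.064 to 0.017, Klf5 was at 0.39 without EV replicate 4, Klf13 at -0.18 without EV replicate 2 and Klf15 at -0.27 without L63RhoA replicate 1, and Klf16 ran from 0.0057 to 0.20, Mef2c from 0.08 to 0.25, Sp1 from -0.70 to -0.28 and Smad3 from 0.19 to 0.44. Without further background correction Sp1 was at -0.12, Mef2c at 0.05, Dlk1 at -0.24, Per1 at -0.35, Smad3 at 0.20 and Klf16 at 0.06. Of the lists, only the genes named by smallest p were followed under each setting. Among these, Smtn, Cald1, Nr3c1 and Per1 gained a call without EV replicate 3, where 10.97% of all genes were called. Without L63RhoA replicate 1, Sp1, Sin3a, Smtn, Cald1, Dlk1, Nr3c1 and Dusp1 gained one, where 15.1% of all genes were called. With array weights these 8 genes and Nqo1 (adjusted p = 0.040 from limma) gained one, where 25.1% of all genes were called. The score is confounded with condition, so those values are not corrected effects; other causes were not tested.

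With the replicate number as a replicate block, 18 of all genes and no KLF gene were called. Arrays with the same number did not deviate together (r = -0.10, -0.22, 0.27 and -0.23). None of the 4 EV arrays correlated best with the L63RhoA array of its own number. The call of Lpl was lost with the block (adjusted p = 0.13 from limma), with the score as a covariate and without EV replicates 2 and 4 together. Under an unpaired t-test in place of limma, neither Lpl nor Acta2 passed (adjusted p = 0.078 for each). The study tested its arrays by permutation at a false discovery rate of 0.20, and 0.078 lies under that rate. Klf10 and Klf15 had no value when detection on all 8 arrays, or a detection p under 0.01 on 4, was required; signal close to background limits these genes and Klf2.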
